A study of Rattus norvegicus with 39 samples.

Results

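The subunits of the mitochondrial respiratory chain were followed across the 4 corticosteroid states of the study. A probe set was taken as a member when the platform table gave it a single gene symbol beginning with Nduf, with Sdh followed by a to d, with Uqcr, with Cox4 to Cox8 or with Atp5, or the symbol Cyc1 or Cycs. This gave 102 of the 8799 probe sets on the array, standing for 56 genes. Of these, 96 passed the filter on dim probe sets and still stood for all 56 genes. The 6 below the filter belonged to Ndufa4l2, Ndufv3, Ndufb11, Ndufs4, Ndufaf3 and Cox6a2. Cycs, which encodes cytochrome c, had 0 probe sets with a single symbol, and 7 probe sets whose symbols paired a subunit with a pseudogene or related locus were left out. The tested members comprised 37 probe sets of complex I (24 genes), 1 of complex II (Sdha), 7 of complex III (4 genes), 24 of complex IV (12 genes) and 13 of complex V (9 genes). A further 14 probe sets (6 genes) fitted the naming rule but encode assembly factors, regulators, a paralog or a pseudogene, and are called associated here.

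The tissue was hippocampal CA1 from male Fischer 344 rats. Each of 39 animals gave a single array, and all were 18 months old when killed. The labels write the strain as Fisher 344. Sham animals (n = 10) had sham surgery at 14 to 15 months of age, kept their adrenals and carried an inert pellet for 3 months. All others were adrenalectomized at 14 to 15 months of age, which removes the main source of corticosterone, the glucocorticoid of the rat. LowCORT animals (n = 10) then carried a corticosterone pellet of 25 mg for 3 months. The pellet of the IntermediateCORT animals (n = 9) held 200 mg and lasted as long. LowInj animals (n = 10) received the 25 mg pellet and in addition 5 mg of corticosterone per day by intraperitoneal injection on the last 4 days. Saline and sucrose drinking water is recorded as continued for the low-dose animals, so the drinking fluid may differ together with the pellet dose. Because whole CA1 tissue was assayed, fewer cells of a type and less RNA per cell cannot be told apart.

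Complexes I, III and IV pass electrons from NADH to oxygen and pump protons across the inner mitochondrial membrane, complex II feeds in electrons from succinate, and complex V uses the proton gradient to make ATP. All members considered here are encoded in the nucleus, whereas the catalytic core of several complexes is encoded by mitochondrial DNA. Neurons depend on this chain for most of the ATP that restores ion gradients after firing, and transcription of the nuclear genes is known to use NRF1, ETS-family factors (including NRF2/GABP) and YY1.

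Promoter sequence, from RefSeq promoters on the build GRCr8, matched 47 of the 56 genes. The window used for counting runs from 250 bases before to 50 bases after the annotated start. Of the 47 promoters, 6 (12.8%) held the NRF1 word, GCGCA and GCGC with 1 free base between them, on either strand, against 4.25% of all 33469 promoters of that length. The ETS word CCGGAAG occurred in 10 (21.3%) against 8.75%, and the YY1 word AANATGGCG in 11 (23.4%) against 3.01%. The YY1 word was present in 8 of 22 complex I promoters and in 0 of 9 complex IV promoters, whereas the ETS word was present in 3 of each. The glucocorticoid receptor word, GNACA and TGTNC with 3 free bases between them, occurred in 0 of the 47 promoters, against 0.439% of all promoters. A word so rare is hardly to be found in 47 promoters, so its absence carries little information about these genes. All the words counted are matches of letters and not measured sites. They are shown for 1 gene of each complex, a gene with the most kinds of these words (the first by alphabet where several tied, as in complexes I and IV), so that the stretches in front of the measured genes can be read. Each line gives the 250 bases before the start and the first 30 after it, 5′ to 3′ on the strand of the gene, with the matched words in capitals. Their places are chr7:115750288-115750567 on the minus strand for Ndufa6, chr1:30764303-30764582 on the plus strand for Sdha, chr1:184598990-184599269 on the plus strand for Uqcrc2, chr19:65630133-65630412 on the plus strand for Cox4i1 and chr11:37375072-37375351 on the minus strand for Atp5pf.
Ndufa6: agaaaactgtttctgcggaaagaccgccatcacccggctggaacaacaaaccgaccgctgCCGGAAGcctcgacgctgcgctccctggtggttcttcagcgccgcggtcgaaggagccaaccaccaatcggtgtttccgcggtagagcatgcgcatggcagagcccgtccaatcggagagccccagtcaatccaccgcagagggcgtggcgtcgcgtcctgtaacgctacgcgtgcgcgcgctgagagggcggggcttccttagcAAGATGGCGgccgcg
Sdha: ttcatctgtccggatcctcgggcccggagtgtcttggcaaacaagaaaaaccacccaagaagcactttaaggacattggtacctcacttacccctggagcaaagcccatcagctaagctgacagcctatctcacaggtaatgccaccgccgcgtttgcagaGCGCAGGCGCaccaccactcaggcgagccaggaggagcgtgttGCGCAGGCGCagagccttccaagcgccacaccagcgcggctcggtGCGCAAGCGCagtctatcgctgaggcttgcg
Uqcrc2: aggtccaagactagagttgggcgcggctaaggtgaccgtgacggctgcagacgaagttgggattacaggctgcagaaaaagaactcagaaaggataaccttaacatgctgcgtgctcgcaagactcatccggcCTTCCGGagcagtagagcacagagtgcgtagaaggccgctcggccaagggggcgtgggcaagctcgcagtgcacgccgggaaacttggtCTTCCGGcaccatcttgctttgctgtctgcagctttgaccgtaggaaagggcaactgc
Cox4i1: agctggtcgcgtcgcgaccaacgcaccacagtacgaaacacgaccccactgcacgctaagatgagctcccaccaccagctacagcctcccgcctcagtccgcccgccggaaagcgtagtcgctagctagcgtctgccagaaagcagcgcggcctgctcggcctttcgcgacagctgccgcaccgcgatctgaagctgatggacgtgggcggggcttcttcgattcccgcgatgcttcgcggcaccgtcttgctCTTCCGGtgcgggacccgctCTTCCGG
Atp5pf: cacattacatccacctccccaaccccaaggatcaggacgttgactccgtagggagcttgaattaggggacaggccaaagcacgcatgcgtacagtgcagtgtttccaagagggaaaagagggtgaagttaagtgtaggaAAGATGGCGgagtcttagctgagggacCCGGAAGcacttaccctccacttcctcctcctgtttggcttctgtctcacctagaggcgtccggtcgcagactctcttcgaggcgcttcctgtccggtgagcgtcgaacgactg
Ndufa6 and Atp5pf each held 1 ETS and 1 YY1 word, Sdha held 3 NRF1 words, and Uqcrc2 and Cox4i1 each held 2 ETS words, read here on the opposite strand as CTTCCGG. None of the 5 held the glucocorticoid receptor word, whose rarity makes its absence here uninformative as well.

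Deposited values were log2 expression, and differences between group means are given on that scale. No respiratory chain probe set passed limma's test at an adjusted p of 0.05 in any of the 6 comparisons between groups. In LowCORT minus Sham, 0 of 96 members were called against 103 of all 6118 probe sets tested (1.68%). The lowest adjusted p of a member there was 0.338. In IntermediateCORT minus LowCORT, the comparison of the pellet doses, 0 of 96 were called against 131 of all probe sets (2.14%), and the lowest adjusted p was 0.191. In LowInj minus Sham the background was 0.229%, in LowInj minus LowCORT 0.343%, in LowInj minus IntermediateCORT 0.196% and in IntermediateCORT minus Sham 0.0163%, with 0 members called in each. The F test over the 4 groups called 0 members against 139 of all probe sets (2.27%). In all of these tests the background was so low that few of 96 probe sets would be called at that share. A count of 0 therefore carries little information about the members, and least in the last 4 of these pairwise comparisons.

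At an unadjusted p under 0.05, limma found 1 member in LowCORT minus Sham (1.04% of 96, against 13.6% of all probe sets) and 1 in IntermediateCORT minus Sham (1.04% against 4.22%). It found 0 in LowInj minus Sham (against 5.95%) and 1 in LowInj minus LowCORT (1.04% against 7.37%). More members reached that level where IntermediateCORT was set against a low-pellet group, with 8 in IntermediateCORT minus LowCORT (8.33% against 11.9%) and 9 in LowInj minus IntermediateCORT (9.38% against 11.4%). The F test gave 2 (2.08% against 11.8%). In every one of these comparisons the members' share lay below that of all probe sets, a description and not a test, since members of 1 gene and members of 1 chain share their signal.

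The sizes of the differences were small. The median absolute difference over the 576 combinations of member and comparison was 0.05 (1.04-fold), and the largest was 0.34 (1.27-fold), for Cox6c in LowInj minus IntermediateCORT. The 95% confidence interval from limma lay within 1.5-fold in either direction for 569 of the 576 and within 2-fold for all 576. Within 1.2-fold it lay for 388. The widest interval, from -0.68 to 0.18, was that of Ndufs1, the largest iron-sulfur subunit of complex I, in LowInj minus IntermediateCORT. Changes of a few percent were not resolved by 9 or 10 animals a group. Each interval stands alone at 95% without adjustment for the 576, so some may miss the true value. The intervals bound the signal of a probe set, and probe sets of the same gene did not always agree. The median SD within groups was 0.17 for members and 0.16 for all probe sets tested, at median levels of 10.27 and 8.04. This SD holds differences between animals as well as measurement error.

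The members' medians lay slightly below Sham in the 3 adrenalectomized groups. The median log2 difference was -0.04 in LowCORT minus Sham, where 64 of 96 members (66.7%) were lower, against 52.9% of all probe sets and a median of -0.01. It was -0.04 in IntermediateCORT minus Sham as well, with 61 of 96 lower (63.5% against 52.7%). It was -0.01 in LowInj minus Sham (54 of 96 lower, 56.2% against 47.8% and a median of 0.00). These 3 comparisons share the Sham arrays. Without Sham subject 6 the members' medians were -0.021, -0.011 and 0.006, so the last turned sign. IntermediateCORT minus Sham was also -0.013 without IntermediateCORT subject 14, -0.022 without subject 15 and -0.019 without Sham subject 7, and LowInj minus Sham was 0.005 without LowInj subject 30. Between the adrenalectomized groups the medians were 0.01 in IntermediateCORT minus LowCORT, 0.03 in LowInj minus LowCORT and 0.03 in LowInj minus IntermediateCORT, against 0.01, 0.01 and 0.02 for all probe sets. These shifts were a fraction of the SD within groups, and the plot of the differences by complex shows them beside the scatter of the single probe sets.

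**Figure D1:**
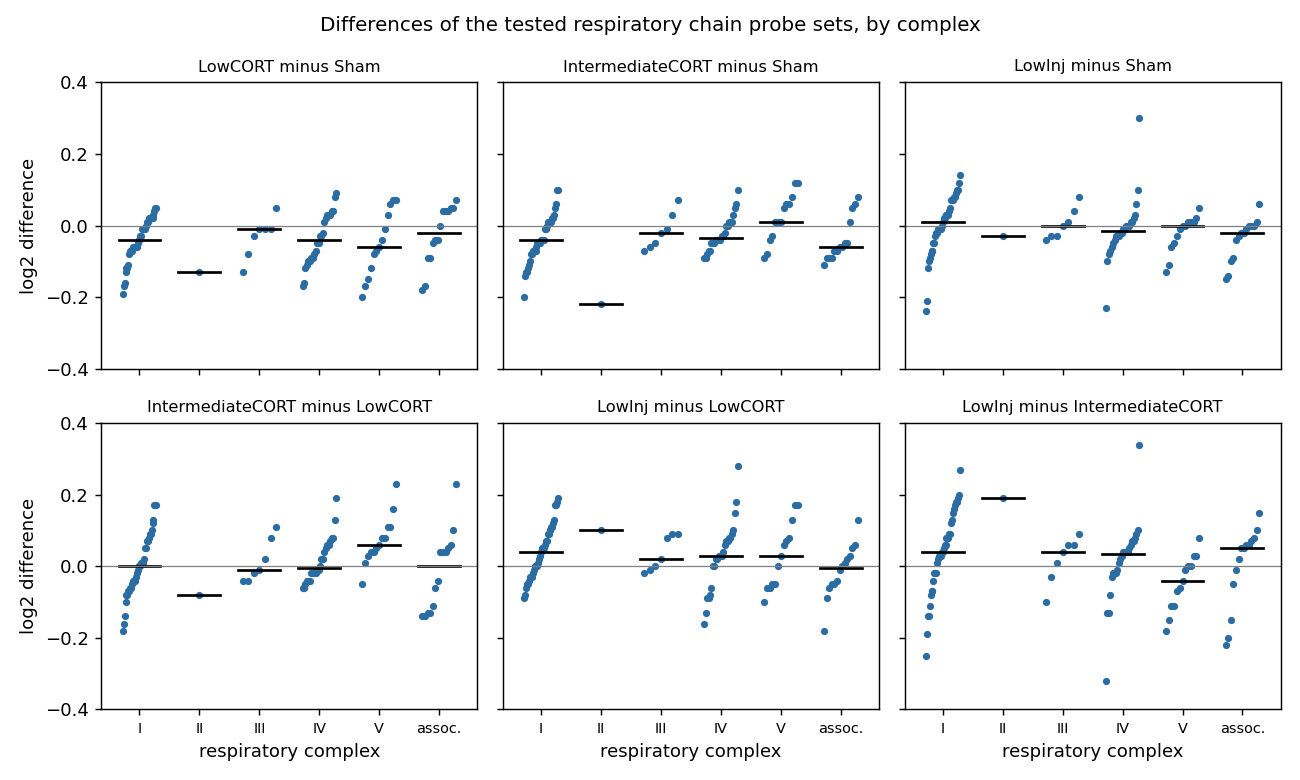
Log2 difference (vertical axis) of each tested respiratory chain probe set, 96 points per panel, by complex (horizontal axis, assoc. for associated genes) in the 6 comparisons, with the median of each complex as a black bar. Points lie between -0.32 and 0.34, and 0 of them were called at an adjusted p of 0.05.

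Complex I, the NADH dehydrogenase, had a median log2 difference of -0.04 in LowCORT minus Sham and 0.00 in IntermediateCORT minus LowCORT, with 3 of 37 probe sets at an unadjusted p under 0.05 in the latter. The member with the smallest F-test p was Ndufb8, an accessory subunit of the membrane arm (probe set rc_AA851403_at, F-test p = 0.0371, adjusted p = 0.373). Its log2 level ran from 8.75 through a median of 8.93 to 9.22 in Sham, from 8.88 through 8.97 to 9.24 in LowCORT, from 8.53 through 8.80 to 9.07 in IntermediateCORT and from 8.78 through 8.98 to 9.27 in LowInj. IntermediateCORT was the lowest group by its median, and its range overlapped those of the others. LowInj exceeded IntermediateCORT by 0.18 (SE 0.07, limma adjusted p = 0.281), and IntermediateCORT lay 0.18 under LowCORT (difference -0.18, limma adjusted p = 0.209). The other 3 Ndufb8 probe sets did not repeat this. Their differences in LowInj minus IntermediateCORT were -0.02, -0.11 and 0.06, and the pairwise correlations among the 4 Ndufb8 probe sets over the 39 arrays, after removal of group means, ran from -0.13 to 0.32.

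Ndufv2, an iron-sulfur subunit of the NADH-oxidizing module, was measured by probe set M22756_at. Over the animals, its log2 level ran from 10.03 through a median of 10.50 to 10.74 in Sham, from 10.26 through 10.46 to 10.57 in LowCORT, from 10.41 through 10.56 to 10.84 in IntermediateCORT and from 10.16 through 10.39 to 10.68 in LowInj. The groups overlapped, with IntermediateCORT highest, the opposite order to Ndufb8. LowInj minus IntermediateCORT was -0.19 (SE 0.07, limma adjusted p = 0.286). Ndufa6, an accessory subunit of the arm facing the matrix, differed by 0.15 in the same comparison (limma adjusted p = 0.399) through its probe set rc_AI229924_at. Its other probe set differed in sign in 3 of the 6 comparisons. Ndufb3, a small membrane-arm subunit, had the largest F-test p among the complex I genes when each gene was taken by its probe set with the smallest p (p = 0.949). Its group means were 10.74 ± 0.29 for Sham, 10.75 ± 0.34 for LowCORT, 10.70 ± 0.31 for IntermediateCORT and 10.77 ± 0.30 for LowInj (SD, n = 9 to 10).

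Complex II was represented by Sdha alone, the flavoprotein that oxidizes succinate and also a citric acid cycle enzyme. Sdha ran from 9.85 through a median of 10.07 to 10.22 in Sham, from 9.60 through 9.96 to 10.27 in LowCORT, from 8.84 through 10.01 to 10.22 in IntermediateCORT and from 9.80 through 10.06 to 10.28 in LowInj. All 4 medians lay close together, and a single IntermediateCORT animal, subject 17, lay far below the rest of its group, whose other animals ran from 9.69 to 10.22. IntermediateCORT minus Sham was -0.22 (SE 0.11, limma adjusted p = 0.998) with that animal and -0.09 without it.

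Complex III, the cytochrome bc complex, had 0 of 7 probe sets at an unadjusted p under 0.05 in all 6 comparisons, and its medians lay between -0.02 and 0.04. Uqcrfs1, the Rieske iron-sulfur protein, had the smallest F-test p of the complex (p = 0.587, probe set M24542cds_at). Its level ran from 9.37 through a median of 9.70 to 10.05 in Sham, from 9.14 through 9.63 to 9.87 in LowCORT, from 9.45 through 9.63 to 10.01 in IntermediateCORT and from 9.34 through 9.59 to 10.22 in LowInj. The groups overlapped throughout, and LowCORT minus Sham was -0.13 (SE 0.10, limma adjusted p = 0.623). Uqcr11, a small structural subunit, had group means between 11.93 and 12.03 by its probe set rc_AA892462_at. Cyc1, the subunit that hands electrons to cytochrome c, had means between 10.72 and 10.81. Uqcrc2, a core protein whose promoter is printed above, had means of 10.52 ± 0.16 for Sham, 10.49 ± 0.12 for LowCORT, 10.45 ± 0.13 for IntermediateCORT and 10.49 ± 0.17 for LowInj (SD, n = 9 to 10).

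Complex IV, cytochrome c oxidase, held the members with the largest differences. Cox6c, a small nuclear-encoded subunit, differed by 0.34 in LowInj minus IntermediateCORT (SE 0.17, limma adjusted p = 0.435) through probe set M27467_at. Its values ran from 6.57 through a median of 6.89 to 7.39 in Sham, from 6.46 through 6.93 to 7.53 in LowCORT, from 6.27 through 6.76 to 7.38 in IntermediateCORT and from 6.63 through 7.21 to 7.79 in LowInj. LowInj was the highest group by its median, and all 4 overlapped. The other Cox6c probe set, M27466_at, differed by -0.01 in the same comparison.

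Cox4i1, a regulatory subunit that binds ATP and is the main isoform outside the lung, was read by 3 probe sets. By X54081mRNA_i_at the level ran from 10.19 through a median of 10.65 to 11.15 in Sham, from 10.08 through 10.59 to 11.06 in LowCORT, from 10.33 through 10.77 to 10.99 in IntermediateCORT and from 9.80 through 10.42 to 10.92 in LowInj. LowInj was the lowest by its median, with overlap, and LowInj minus IntermediateCORT was -0.32 (SE 0.12, limma adjusted p = 0.281). The other 2 probe sets gave -0.08 and 0.04. Correlations among the 3 ran from -0.36 to 0.73, so probe sets of the same gene went in opposite directions from animal to animal.

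The remaining complex IV genes moved little. Cox6a2, the isoform of heart and skeletal muscle, had means between 8.20 and 8.29 by probe set X12554cds_s_at, with IntermediateCORT minus Sham at -0.09 (SE 0.04, limma adjusted p = 0.998). Its other tested probe set, rc_AI171644_s_at, gave -0.05. Cox7b, a small subunit, had the largest F-test p among the genes of the complex, each taken by its probe set with the smallest p (p = 0.904), and means between 10.73 and 10.80. COX1, the catalytic subunit, is encoded by mitochondrial DNA and is no member by the naming rule. It was added after its values were seen. Its 2 probe sets had means between 12.96 and 13.03 and between 13.34 and 13.39, their differences lay between -0.07 and 0.06, and 0 of 12 were called by limma (lowest adjusted p = 0.794).

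**Figure D2:**
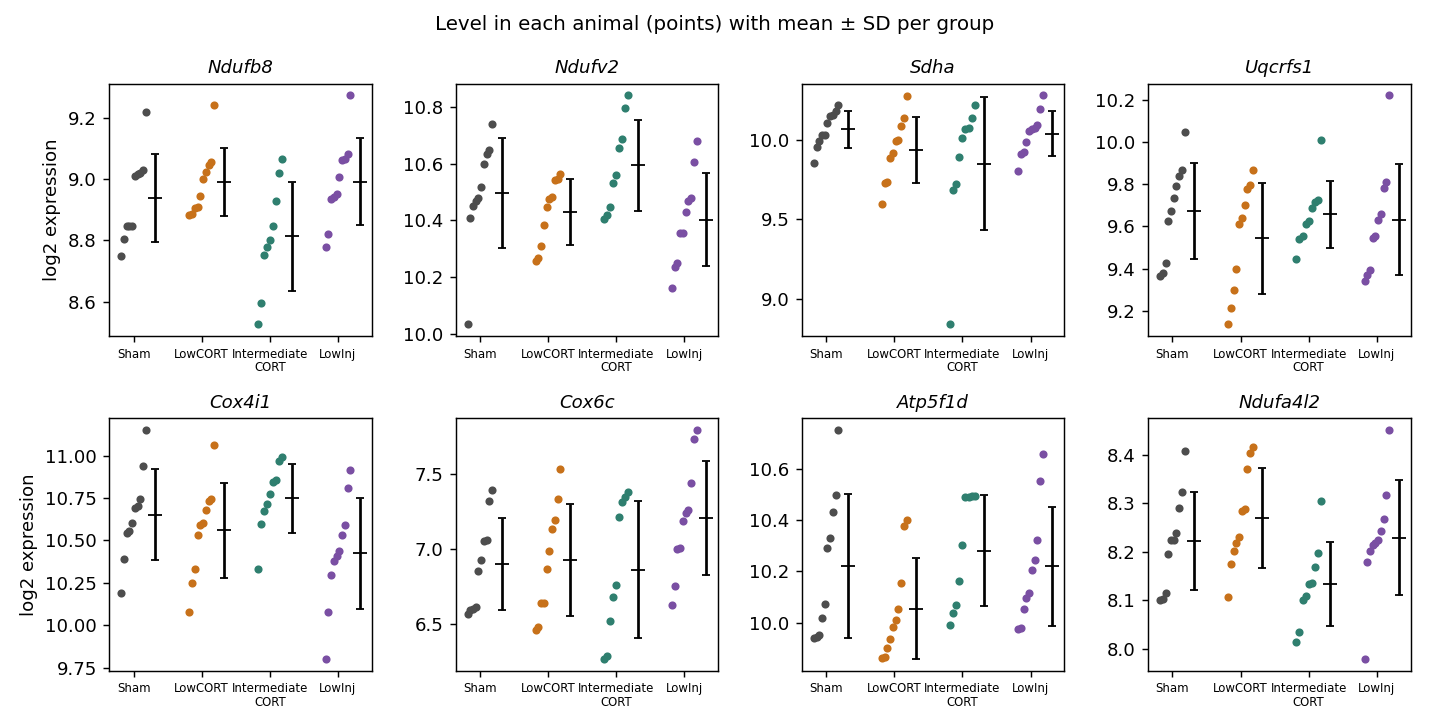
Log2 expression (vertical axis, a separate range in each panel that does not start at 0) in each animal for 8 respiratory chain probe sets, by group, points in order of value, with mean ± SD beside them (n = 10, 10, 9 and 10). The groups overlap in every panel, and in Sdha 1 IntermediateCORT animal lies at 8.84.

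Complex V, the ATP synthase, held the largest one-sided share of any complex with more than 1 probe set. In IntermediateCORT minus LowCORT, 12 of 13 were positive with a median of 0.06, against 3231 of 6118 of all probe sets and a median of 0.01. Several of these 13 share a gene, and 0 were called. Atp5f1d, the delta subunit of the central stalk, had the smallest F-test p of the complex (p = 0.162, probe set U00926_at). By animal it ran from 9.94 through a median of 10.18 to 10.75 in Sham, from 9.86 through 10.00 to 10.40 in LowCORT, from 9.99 through 10.30 to 10.49 in IntermediateCORT and from 9.98 through 10.16 to 10.66 in LowInj. LowCORT was lowest by its median, and the ranges overlapped. IntermediateCORT minus LowCORT was 0.23 (SE 0.10, limma adjusted p = 0.375), and the 2 Atp5f1d probe sets correlated at 0.90.

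In LowInj minus IntermediateCORT the lean was the other way, with 8 of 13 negative and a median of -0.04. Atp5po, the stalk subunit that confers sensitivity to oligomycin, differed there by -0.18 (SE 0.08, limma adjusted p = 0.393) by probe set D13127_at and by 0.00 by its other probe set. Atp5f1e, the epsilon subunit of the central stalk, differed by -0.15 by probe set rc_AI171844_at (limma adjusted p = 0.424) and by -0.07 by rc_AI171844_g_at. Atp5f1b, the catalytic beta subunit, was the tightest of the complex, with means of 12.09 ± 0.08 for Sham, 12.05 ± 0.10 for LowCORT, 12.09 ± 0.09 for IntermediateCORT and 12.08 ± 0.10 for LowInj (SD, n = 9 to 10).

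Among the associated genes, Ndufa4l2, a paralog of a complex IV subunit known to be induced by hypoxia, had the lowest adjusted p of all members. By probe set AA684929_f_at its level ran from 8.10 through a median of 8.22 to 8.41 in Sham, from 8.11 through 8.26 to 8.42 in LowCORT, from 8.02 through 8.13 to 8.31 in IntermediateCORT and from 7.98 through 8.22 to 8.45 in LowInj. IntermediateCORT was the lowest by its median but overlapped the others, and IntermediateCORT minus LowCORT was -0.14 (SE 0.05, limma adjusted p = 0.191), with 8 of 9 animals below the LowCORT mean. The other 3 tested probe sets of the gene gave -0.14, -0.13 and -0.13. All 4 carry the suffix of probe sets that can detect several members of a sequence family, and they correlated at 0.67 to 0.77, so they are not separate evidence. With array weights in limma, 2 of the 4 passed (adjusted p = 0.0325 and 0.0335), and with the RNA-end covariates 1 passed (adjusted p = 0.0448).

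Ndufaf3, an assembly factor of complex I, differed by 0.23 in IntermediateCORT minus LowCORT by probe set U95161_s_at (SE 0.09, limma adjusted p = 0.258). Its level ran from 8.21 through a median of 8.58 to 8.88 in Sham, from 8.02 through 8.47 to 8.74 in LowCORT, from 8.45 through 8.67 to 8.84 in IntermediateCORT and from 8.01 through 8.48 to 8.69 in LowInj. All 9 IntermediateCORT animals lay above the LowCORT mean, with ranges that overlapped, while the other tested probe set of the gene gave 0.05. Sdhaf2, which helps to attach the flavin to Sdha, differed by -0.15 in LowInj minus IntermediateCORT (limma adjusted p = 0.509). Cox6c-ps1, a Cox6c pseudogene whose probe set may also hybridize to its parent's transcript, lay near the filter with means between 6.25 and 6.36.

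Agreement between probe sets of the same gene bears on how far a single value can be read. Of the 56 genes, 26 had at least 2 tested probe sets (66 in all). In 17 of the 26 every pair correlated above 0.5 over the 39 arrays, and in 3, Cox4i1, Cox8b and Ndufb8, some pair correlated below 0. For 30 genes a single probe set was the only reading.

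Beyond the group means, the members varied partly together from animal to animal. After removal of the group means, pairs of probe sets of the same gene had a median correlation of 0.69 (59 pairs). Pairs from different genes had a median of 0.15 (4501 pairs), with 15.0% above 0.5, whereas pairs of a member with any other probe set had a median of 0.00 with 6.6% above 0.5. Within complex V the median for different genes was 0.29, within complex I 0.25, within complex III 0.18 and within complex IV 0.06, against 0.13 between complexes. Among the highest pairs were Ndufb6 of complex I with Cox6a1 of complex IV at 0.90 and, within complex IV, Cox6b1 with Ndufa4 at 0.89. The lowest was Atp5po with Ndufs8 at -0.71. All of these pairs share the same 39 arrays, the same RNA and the same normalization, and they are descriptions with no test.

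**Figure D3:**
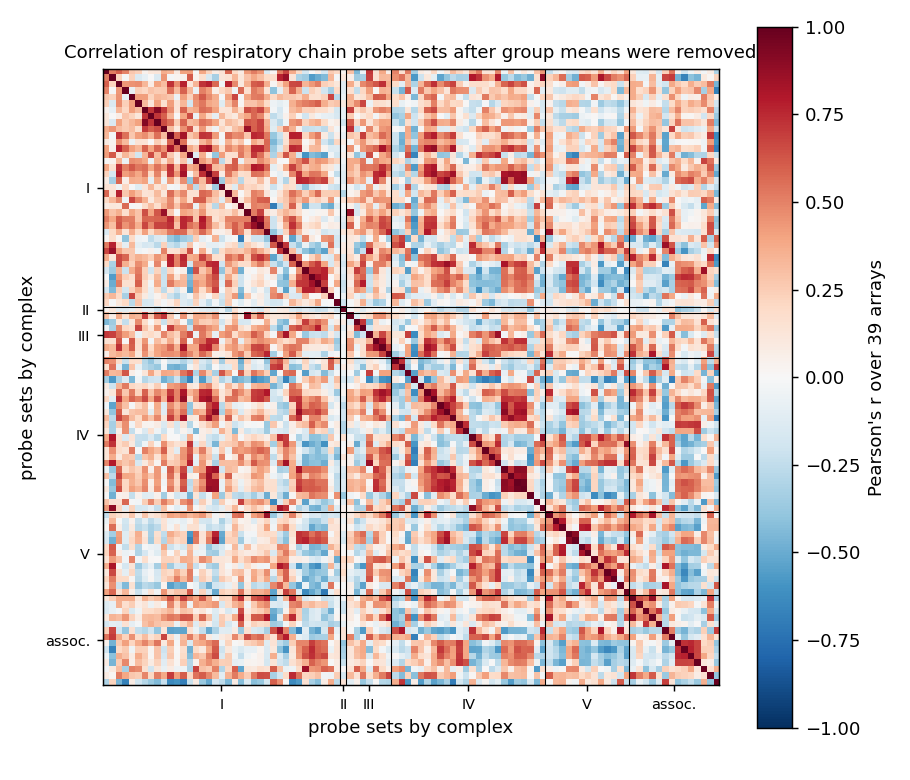
Pearson correlation (colour, from -1 to 1) between all pairs of the 96 tested respiratory chain probe sets over 39 arrays after removal of group means, ordered by complex and then by gene on both axes. Blocks along the diagonal are probe sets of the same gene (median 0.69), and complex IV holds both positive and negative blocks (median between its genes 0.06).

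Each animal's mean deviation over the 96 members, in log2 units from the mean of all animals, placed the groups within a few hundredths of each other. Sham animals averaged 0.02 ± 0.09 (SD, n = 10) and LowCORT animals -0.02 ± 0.07 (SD, n = 10). IntermediateCORT animals averaged -0.01 ± 0.07 (SD, n = 9) and LowInj animals 0.01 ± 0.07 (SD, n = 10). Single animals ran from -0.17 (LowCORT subject 20) to 0.16 (Sham subject 6), a range wider than any difference between groups. Subject 20 was the lowest LowCORT animal in complexes I, II, III and V, with -0.24 in complex I, -0.25 in complex III and -0.22 in complex V. Subject 6 was the highest Sham animal in complexes I, III and IV, at 0.26, 0.29 and 0.14. IntermediateCORT subject 17 was the highest of its group in complexes I, III, IV and V, yet the lowest of all in Sdha, at -1.13.

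**Figure D4:**
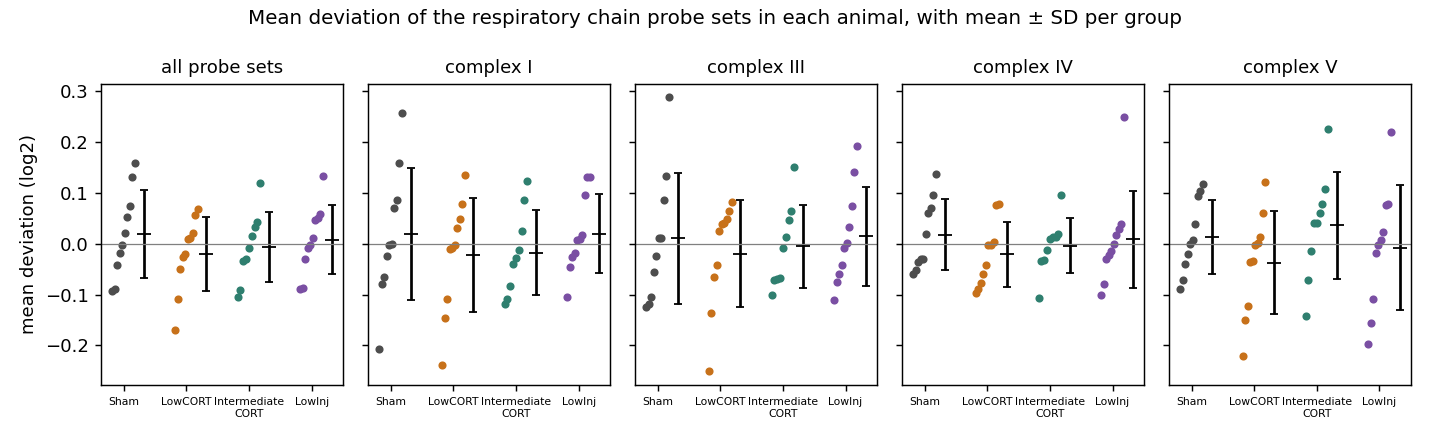
Mean deviation in log2 units (vertical axis) of the respiratory chain probe sets in each animal, for all 96 together and for complexes I, III, IV and V, by group, points in order of value, with mean ± SD beside them (n = 10, 10, 9 and 10). The groups overlap, and single animals range from -0.17 to 0.16 over all probe sets.

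RNA quality was read from the array's control probe sets for Gapdh, as the log2 level of the 3′ set minus that of the 5′ set, which rises when the 5′ ends of transcripts are under-represented. Sham arrays averaged 0.70 ± 0.22 (SD, n = 10) and LowCORT arrays 0.81 ± 0.24 (SD, n = 10). IntermediateCORT arrays averaged 0.63 ± 0.21 (SD, n = 9) and LowInj arrays 1.03 ± 0.60 (SD, n = 10). The highest animals were LowInj subjects 35 (2.41) and 39 (1.56). Over the 39 arrays, 18 of the 96 members (18.8%) related to it with both Pearson's r and Spearman's rho past an adjusted p of 0.05 by permutation, 8 positively and 10 negatively, against 19.5% of all probe sets. The p-values of r and those of rho were adjusted separately, each over the 6118 probe sets tested.

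That share is close to that of the array, and nothing is read from it. Of the members described by name above, 6 are given here with their relation. Sdhaf2 had r = -0.79 and rho = -0.77 (permutation adjusted p = 0.000242 and 0.000156), with r = -0.71 after leaving out the 2 most extreme arrays. Cox4i1 by X54081mRNA_i_at had r = -0.71 and rho = -0.87 (permutation adjusted p = 0.000242 and 0.000156), and r = -0.79 without those 2 arrays. Its other probe sets had r = -0.46 and 0.56. Within groups the first Cox4i1 probe set had r between -0.88 (LowCORT) and -0.61 (LowInj).

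The same relation was seen for Ndufaf3 by U95161_s_at, with r = -0.68, rho = -0.59 and permutation adjusted p = 0.000242 and 0.000916. Within groups its r lay between -0.84 (LowCORT) and -0.39 (Sham), and it was -0.64 without the 2 most extreme arrays. Ndufa6 by rc_AI229924_at had r = 0.64 and rho = 0.65 (permutation adjusted p = 0.000242 and 0.000156), and between 0.20 (LowCORT) and 0.88 (LowInj) within the groups, with 0.56 without those arrays. Ndufv2 had r = -0.63 and rho = -0.65 (permutation adjusted p = 0.000556 and 0.000273), -0.66 without those arrays, and between -0.70 and -0.49 within the groups. Atp5po by D13127_at had r = -0.60 and rho = -0.49 (permutation adjusted p = 0.00463 and 0.0116), -0.55 without those arrays, and between -0.70 and -0.50 within the groups. The other tested probe sets of Atp5po (r = 0.37) and Ndufaf3 (r = 0.31) leaned the other way and were not among the 18. Cox6c by M27467_at (r = 0.43), Atp5f1e by rc_AI171844_at (-0.32), Ndufb8 by rc_AA851403_at (0.31), Atp5f1d by U00926_at (-0.04), Sdha (-0.03) and Ndufa4l2 by AA684929_f_at (0.18) were not among the 18.

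With the Gapdh and beta-actin end differences as covariates in limma, the differences of Sdhaf2, Cox4i1, Ndufv2, Atp5po, Ndufa6 and Ndufaf3 became smaller. These genes were picked by their relation to the Gapdh difference, itself a covariate, so smaller differences follow from that choice. No conclusion is drawn from them, and the cause was not tested. In LowInj minus IntermediateCORT, Sdhaf2 went from -0.15 to 0.01, Cox4i1 from -0.32 to -0.12, Ndufv2 from -0.19 to -0.09, Atp5po from -0.18 to -0.07 and Ndufa6 from 0.15 to 0.05. Ndufaf3 in IntermediateCORT minus LowCORT went from 0.23 to 0.13. Ndufb8, which was not among the 18 by the probe set named, went from 0.18 to 0.15 in LowInj minus IntermediateCORT. Cox6c went from 0.34 to 0.21 and Atp5f1e from -0.15 to -0.10 in that comparison, and Atp5f1d from 0.23 to 0.16 in IntermediateCORT minus LowCORT. Sdha stayed at -0.22 in IntermediateCORT minus Sham, and Ndufa4l2 by AA684929_f_at went from -0.14 to -0.15 in IntermediateCORT minus LowCORT (limma adjusted p = 0.0875).

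Other genes of mitochondrial metabolism, on lists drawn up beside the members, moved in 2 cases. The citric acid cycle and pyruvate dehydrogenase had 22 tested probe sets of 12 genes, of which 1 was called, lower in LowCORT minus Sham (background 1.68% in either direction). This was Idh2, the mitochondrial NADP-dependent isocitrate dehydrogenase. Idh2 ran from 9.27 through a median of 9.37 to 9.61 in Sham and from 8.83 through 9.16 to 9.42 in LowCORT. Most LowCORT animals lay low, with overlap, and the difference was -0.24 (SE 0.07, limma adjusted p = 0.0462). The adjusted p ran from 0.0156 to 0.102 over 49 alternatives, 22 of which did not pass. It did not pass when Sham subject 1, 2, 5, 7, 8 or 9, LowCORT subject 20, 22, 23, 24, 25, 28 or 29, IntermediateCORT subject 13, 16 or 18, or LowInj subject 31, 36 or 38 was left out (adjusted p from 0.0502 to 0.102). It also did not pass without the filter (adjusted p = 0.0524), with trend and robust variances (adjusted p = 0.0506) and with only those groups in the model (adjusted p = 0.0648).

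Ak4, an adenylate kinase of the mitochondrial matrix, was called among the 6 tested probe sets (4 genes) of the creatine and adenylate kinase list. The background was 1.68% in LowCORT minus Sham, 2.14% in IntermediateCORT minus LowCORT and 0.343% in LowInj minus LowCORT. The median of the 6 probe sets lay on the other side from Ak4, at -0.13, 0.11 and 0.03 in these comparisons. Ak4 ran from 8.84 through a median of 9.22 to 9.35 in Sham, from 9.34 through 9.55 to 9.95 in LowCORT, from 8.86 through 9.21 to 9.31 in IntermediateCORT and from 8.96 through 9.20 to 9.50 in LowInj. All LowCORT animals lay above all IntermediateCORT animals and nearly all Sham animals. Ak4 was named because it was called, so this separation is not further evidence. Ak4 rose by 0.42 in LowCORT minus Sham (SE 0.08, limma adjusted p = 0.00115), and it lay lower by 0.40 in IntermediateCORT minus LowCORT (difference -0.40, limma adjusted p = 0.0028). Both calls held in all 50 alternatives. LowInj minus LowCORT was -0.36 (limma adjusted p = 0.0237), a call that was lost without LowCORT subject 28 or 29 or LowInj subject 33, 34 or 39 (adjusted p from 0.0523 to 0.0594). It was also lost without the 2 arrays of highest Gapdh difference (adjusted p = 0.0831) and with only those groups in the model (adjusted p = 0.112).

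The mitochondrial carriers and porins (19 probe sets, 12 genes), the assembly and import factors (11 probe sets, 7 genes) and the regulators of mitochondrial content (2 probe sets of Esrra, the 1 gene tested of 14 listed) gave 0 calls in all 6 comparisons by limma. The background ran from 0.0163% to 2.14%, so 0 calls among so few probe sets carries little information about these genes. The median differences of these lists lay between -0.03 and 0.12. The genes with the smallest F-test p on these lists were Slc25a14, a brain uncoupling carrier (p = 0.0411), Timm17a, an import channel subunit (p = 0.0841), and Esrra itself, a nuclear receptor of mitochondrial genes (p = 0.212).

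Markers of CA1 and other pyramidal neurons were present, with 4 of 7 listed genes above the filter, and the 1 dentate granule marker on the array fell below it. These readings do not show how cleanly CA1 was dissected. Choroid plexus markers were also above it (3 of 5 genes). Single marker probe sets were called where no member was, and the lists themselves were not tested. In IntermediateCORT minus LowCORT (background 2.14% in either direction), limma called lower 2 of 4 endothelial and pericyte probe sets (Slco1a4 and Kcnj8), 2 of 5 choroid plexus probe sets (both of Enpp2), 1 of 8 microglial (Aif1) and 1 of 11 oligodendrocyte (Cnp). It called 1 of 7 pyramidal probe sets, Calb1, higher. The median differences of these lists, in the order named, were -0.35, -0.17, -0.10, 0.00 and 0.26. The oligodendrocyte list as a whole thus did not go with Cnp. In LowCORT minus Sham (background 1.68%), 1 of 7 pyramidal probe sets (Calb1) and 2 of 9 interneuron probe sets (Gad1 and Calb2) were called lower. Called higher there were 1 of 8 microglial (Aif1), 1 of 4 endothelial and pericyte (Slco1a4) and 1 of 5 choroid plexus probe sets (Enpp2). List medians there were -0.09 for pyramidal, -0.23 for interneuron, 0.05 for microglial, 0.29 for endothelial and pericyte and 0.07 for choroid plexus. The Enpp2 probe set D28560_g_at did not pass there (0.38, limma adjusted p = 0.0717). Of 2 blood probe sets, 1 (Alas2) was called higher in LowInj minus LowCORT (background 0.343%, list median 0.48). Of 7 pyramidal probe sets, 1 (Camk2a) was called lower in LowInj minus IntermediateCORT (background 0.196%, list median -0.10). The mean level of the 4 endothelial and pericyte probe sets ran from 7.82 to 8.34 in LowCORT, 7.45 to 7.81 in IntermediateCORT, 7.56 to 7.83 in Sham and 7.67 to 8.11 in LowInj. The mean of the 9 neuronal probe sets ran from 9.36 to 10.34 in Sham and from 9.12 to 10.19 in LowCORT, with a median difference of -0.31 and 0 called by limma. The neuronal median was also -0.31 in LowInj minus Sham and -0.24 in LowInj minus IntermediateCORT, but -0.03 in IntermediateCORT minus Sham. For the 12 astrocyte probe sets it was -0.16 in LowCORT minus Sham and -0.14 in LowInj minus Sham, with 0 called. The part of these markers in the respiratory chain values was not tested.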

How the data were processed

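CA1 tissue of 39 rats was assayed on Affymetrix arrays, and the deposited values are log2 expression of 8799 probe sets. MAS5, RMA and R 2.7.1 are named per the submitters' processing notes without roles, so it is unknown which made the values and how low levels were treated. No further normalization was applied (array medians 7.27 to 7.33). Groups came from the labels, which give no batch or scan date. After 59 control probe sets were left out, those with a mean at or above the 30th percentile (6.28) were tested, 6118 in all. Comparisons used limma 3.58.1 in R 4.3.3 (1 mean per group, 35 residual degrees of freedom, two-sided, Benjamini-Hochberg over 6118, adjusted p under 0.05). All single-gene p-values are from limma. Correlations used 100000 permutations. Entrez identifiers of 102 of 102 members matched the GRCr8 gene table. The scripts were tested on simulated data. Named for each complex were the genes with the 3 smallest F-test p-values and the largest, 1 probe set each, and every called gene and the smallest F-test p of each other list. Members and lists were chosen with earlier results of these data known. Alternatives varied the filter, normalization, covariates, array weights, variance model, probe sets per gene and arrays. The number of arrays limits the precision.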

Additional observations from a re-analysis of the deposited data

Results flagged for a closer look

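In 13 of 108 sets of values, each being a named probe set or a complex mean within a group, 1 animal lay apart from all others by Dixon's criterion, where chance alone gives about 5.4. Sham subject 6 was the highest in Uqcr11 (12.54, the others from 11.66 to 12.06) and the lowest in Atp5po (11.31, the others from 11.79 to 11.97). IntermediateCORT subject 17 was the lowest in Sdha (8.84, the others from 9.69 to 10.22), which is also the complex II deviation of -1.13, and the highest in Uqcrfs1 (10.01, the others up to 9.72). LowInj subject 35, which had the highest Gapdh end difference (2.41), was the highest in Cyc1 (11.21, the others up to 10.89) and in the complex IV deviation (0.25, the others from -0.10 to 0.04). LowCORT subject 20 was the lowest in Cyc1 (10.09, the others from 10.53). The other animals apart were LowCORT subject 25 in Ndufb8 (9.24, the others up to 9.06), Sham subject 10 in Ndufv2 (10.03, the others from 10.41), Sham subject 9 in Cox6c-ps1 (6.97, the others up to 6.44), IntermediateCORT subject 18 in Cox6c-ps1 (6.56, the others up to 6.30) and Sham subject 5 in the deviation of the associated genes (-0.16, the others from -0.02). The causes were not tested.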

How the results depend on the processing

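The count of members called stayed at 0 in all comparisons under the alternatives run, with 2 exceptions, both in IntermediateCORT minus LowCORT. There it was 1 with the 3′ to 5′ covariates (Ndufa4l2, AA684960_f_at, -0.16, limma adjusted p = 0.0448) and 2 with array weights (Ndufa4l2, AA684929_f_at and AA684960_f_at, both -0.14). Calls over all probe sets moved by more than 1.5 times in some fits. In IntermediateCORT minus LowCORT they went from 131 to 338 with array weights. In LowInj minus IntermediateCORT they went from 12 to 105 with array weights and to 0 with only those groups in the model. Under the same settings LowInj minus Sham went from 14 to 33 and to 1. With array weights LowInj minus LowCORT went from 21 to 50, and with the 3′ to 5′ covariates IntermediateCORT minus Sham went from 1 to 12. In LowCORT minus Sham they went from 103 to 170 with array weights, 175 with the 3′ to 5′ covariates and 185 with subject order as a covariate, and in the F test from 139 to 307 with array weights and 224 with subject order. The causes were not tested. The difference of Sdhaf2 in LowInj minus IntermediateCORT reversed with those covariates, from -0.15 to 0.01. Leaving out each array in turn gave 0 called members in all 39 fits, and the members' median differences from Sham ran from -0.052 to -0.021 for LowCORT, -0.049 to -0.011 for IntermediateCORT and -0.022 to 0.006 for LowInj. Between adrenalectomized groups the medians turned sign in several fits, with IntermediateCORT minus LowCORT at -0.011 after quantile normalization and -0.005 with array weights, and LowInj minus IntermediateCORT at -0.009 with the covariates, -0.001 with array weights and -0.002 without the 2 arrays of highest Gapdh difference. LowInj minus LowCORT was -0.004 with array weights. The setting without the 2 arrays of highest Gapdh difference was chosen after seeing the data. No paired analysis was possible because each subject number belongs to 1 animal in 1 group.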
